A study of Homo sapiens with 5 samples.

Results

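The proteasome is the barrel-shaped protease that degrades ubiquitin-tagged proteins, and the 42 genes described here encode its subunits and dedicated helpers. They were taken by name, as the genes of the PSMA, PSMB, PSMC, PSMD, PSME, PSMF and PSMG families that have a probe set carrying 1 gene symbol, out of 19775 genes with such a probe set. This choice was made with earlier results of these data known. PSMA6, PSMB11, PSMC5, PSMD7, PSMD13 and PSME2 belong to the same families and were not analysed here. RNA of C4-2B, a human prostate cancer line derived from LNCaP that grows in bone, was hybridised to 5 Affymetrix arrays. The control received 0.1% DMSO. The treated cells received 25 µM BR-DIM, which the labels call B-DIM and which is a formulated 3,3′-diindolylmethane, for 6 h or 48 h, or 25 µM isoflavone (the soy mixture G2535, with its concentration counted as genistein) for 6 h or 72 h. All cells were grown in RPMI medium with serum, and the sources used here do not state when the control was taken. Each condition is 1 array, so no difference below has a replicate check, no p-value is given, and all 4 comparisons with the control rest on the same control array. Where 5 signals are given in array order, the control comes first, then BR-DIM at 6 h and 48 h, then isoflavone at 6 h and 72 h, and 4 values on the treated arrays follow the same order.

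The 20S core is a stack of rings. The outer rings are made of alpha subunits (PSMA), which gate the entrance, and the inner rings of beta subunits (PSMB), of which PSMB5, PSMB6 and PSMB7 carry the active sites. In the immunoproteasome, which cells build under interferon, PSMB8, PSMB9 and PSMB10 take the places of those catalytic subunits. The 19S cap binds ubiquitin chains, and its ATPases (PSMC) unfold the substrate while its other subunits (PSMD) receive and deubiquitinate it. PSME proteins are alternative activators of the core, PSMF1 is a core-binding regulator first described as an inhibitor, and PSMG proteins are chaperones that put the core together. Cells short of proteasome activity raise these genes in concert through the transcription factor NRF1, the product of NFE2L1.

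Signals are linear intensities that the authors had scaled to a common level on each array. Signals under 97.1, the median of all signals, were raised to this floor. A gene counts as measured where 1 or both of the arrays compared exceed that floor, and any ratio with a raised signal is only a bound. The brightest probe set by mean signal stands for each gene. Between 48.4% and 52.6% of all probe sets lay above the floor. Of the 42 genes, 38 lay above it on all 5 arrays, and PSMA8, an alpha subunit of the testis, and PSMB8 lay under it on all 5, at 4.1 to 15.3 and 2.8 to 14.7. Genes that mark prostate epithelium set 2 arrays apart: the summed signal of 9 such markers was 17117 in the control, 15821 with BR-DIM for 6 h and 16485 with isoflavone for 72 h, but 2935 with BR-DIM for 48 h and 2725 with isoflavone for 6 h. FOLH1, KLK2 and TMPRSS2 were under the floor on both of these arrays, KLK3 on the former and CDH1 on the latter. The sum hides differences on isoflavone 72 h, where 4 of the 9 were lower than the control. KLK2 (124 against 706.7 in the control) and KLK3 (1545 against 5096) were at least 2-fold lower there, as were 2.06% of all genes. CDH1, at 3736 against 2195, was among those higher. Of 6 markers of macrophages, osteoclasts and leukocytes 1 or 2 were above the floor on each array. CTSK was above it on all 5, at 101 to 137.6, and PTPRC under it on all 5. Of 6 markers of fibroblasts and osteoblasts 1 to 4 were above it, with COL1A1 above it on all 5, at 413.5 to 972. The summed signals were 178 to 347 for the former list and 590.2 to 1718 for the latter. The part of these cells in the results was not tested. Whether these 2 arrays hold a mislabelled or unlike culture cannot be told from the values used here, so each value given below for BR-DIM 48 h or isoflavone 6 h rests on its label. In such bulk RNA fewer cells of a type and less RNA per cell cannot be told apart.

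Nearly all proteasome genes lay within 2-fold of the control, yet most were lower than the control, and the shift was largest with BR-DIM for 48 h. There the median log2 ratio of the 40 measured members was -0.42, against 0.06 over all 12921 genes measured, and 34 of the 40 were lower than the control, where 45.5% of all genes were. With isoflavone for 72 h the median was -0.24 against 0.05, and 35 of 40 were lower, where 45.7% of all genes were. With BR-DIM for 6 h it was -0.09 against 0.07, with 28 of 40 lower beside a background of 42.8%. With isoflavone for 6 h it was -0.09 against 0.00, with 25 of 39 lower beside 49.7%. The 2 arrays with low epithelial markers thus had members' medians of -0.42 and -0.09, and the part of the markers in the result was not tested. Proteasome genes are bright, so the medians were also set beside those of the 1448 genes with a mean signal of at least 4000, a choice made with the data in view, and these were -0.03, -0.01, 0.08 and -0.03 on the treated arrays.

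**Figure D1:**
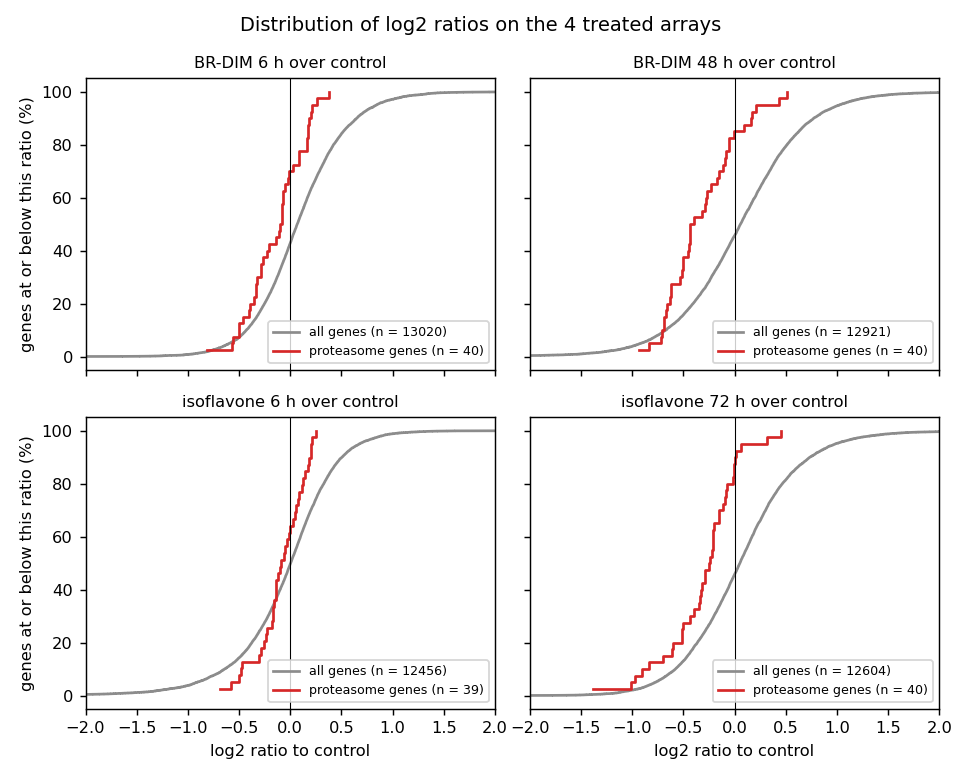
Cumulative distribution of the log2 ratio to the control array (horizontal axis) for the measured proteasome genes (red) and for all measured genes (grey), as a percent of genes (vertical axis), with a panel for each treated array. The red curve lies left of the grey one over most of its length in the later panel of each compound, where the medians were -0.42 and -0.24 against 0.06 and 0.05.

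At the 2-fold rule 0 members were higher on any of the 4 treated arrays, and the lower ones were 2, both on isoflavone 72 h, where 2.06% of all genes were at least 2-fold lower. They were PSMB10 and PSME3. The remaining treated arrays had 0 of 40, 0 of 40 and 0 of 39 members past that rule downwards, beside 0.806%, 3.87% and 3.82% of all genes, and upwards the backgrounds were 2.86%, 5.33%, 1.18% and 4.8% on the treated arrays. At 1.5-fold, 11 of 40 members were lower on BR-DIM 48 h, or 27.5% beside a background of 12.6%, and 8 of 40 on isoflavone 72 h, or 20% beside 9.73%. The former were PSMA3, PSMA5, PSMB5, PSMB6 and PSMB10 of the core particles, PSMD1, PSMD2, PSMD3, PSMD5 and PSMD6 of the cap, and PSME3. The latter were PSMB3, PSMB10, PSMC3, PSMC4, PSMD3, PSMD6, PSME3 and PSMF1, so that PSMB10, PSMD3, PSMD6 and PSME3 stand in both lists, which share the control array. On BR-DIM 6 h PSMD3 alone was 1.5-fold lower (5.15% of all genes) and on isoflavone 6 h PSMD5 alone (11.5%). No member was 1.5-fold higher than the control on a treated array, where 12.4%, 16.8%, 7.15% and 15% of all genes were. Members ranged from -0.93 to 0.51 on BR-DIM 48 h and from -1.38 to 0.45 on isoflavone 72 h.

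**Figure D2:**
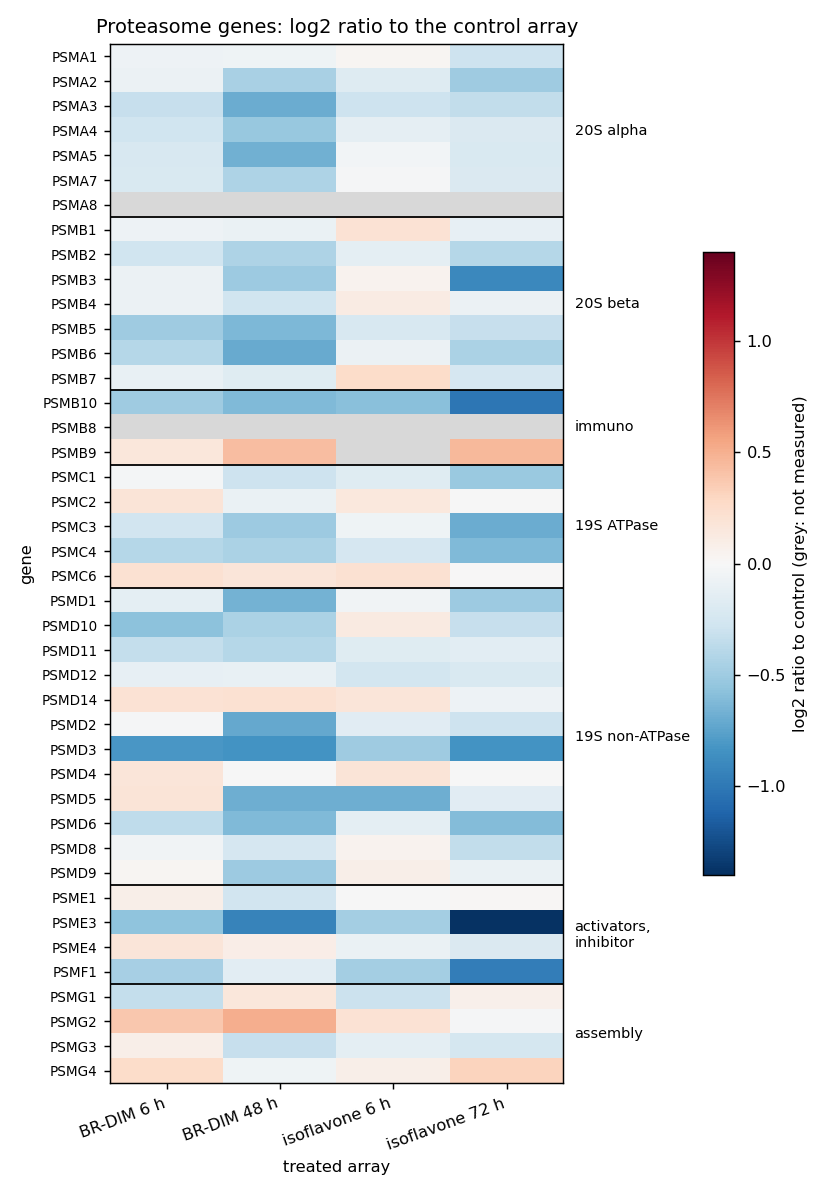
Log2 ratio to the control array (colour) of each of the 42 proteasome genes (rows, by group) on the 4 treated arrays (columns), 1 array each; grey cells lay under the floor on both arrays. The 20S and 19S genes are mostly blue (lower) on BR-DIM 48 h and isoflavone 72 h, PSME3 reaches -1.38, and the warmest cells, up to 0.51, belong to PSMG2 and PSMB9.

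All 13 measured alpha and beta subunits of the 20S core were lower than the control on both BR-DIM arrays and isoflavone 72 h. The medians there were -0.21, -0.45 and -0.29, and 42.8%, 45.5% and 45.7% of all genes were lower. At 6 h of isoflavone 8 of 13 were lower, where 49.7% of all genes were, and the median was -0.03. Among the alpha subunits PSMA3 had the lowest mean ratio, with a signal of 11372, 9074.5, 7048, 9323 and 8933 in array order. Its lowest signal was thus that of BR-DIM 48 h (log2 ratio -0.69), followed by PSMA5 of the same ring at -0.67 on that array. PSMA1 had the highest mean ratio of the measured alpha subunits, with 21084.5, 20007, 20274, 21529.5 and 17283 in array order.

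The beta subunits with the active sites had unlike ratios. PSMB5, which holds the chymotrypsin-like site that bortezomib blocks, had 9974.5, 7050.3, 6464, 8537 and 7984.5 in array order. Its log2 ratios were -0.50, -0.63, -0.22 and -0.32 in that order. PSMB6, of the caspase-like site, was -0.40, -0.71, -0.09 and -0.44. PSMB7, of the trypsin-like site, was -0.10, -0.17, 0.25 and -0.24, so that it lay closer to the control than the others on both BR-DIM arrays. PSMB1, a structural neighbour in the ring and the beta subunit with the highest mean ratio, had 25010.2, 23872, 23454, 28736 and 23178 in array order. PSMB3, a structural beta subunit too, stood out on isoflavone 72 h, where it was 9639.6 against 18005 in the control, a log2 ratio of -0.90.

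The immunoproteasome genes were dim in these cells. PSMB8 lay under the floor on every array. PSMB9 had 63.1, 109, 131, 10.3 and 132.8 in array order, so that it lay near or under the floor throughout and its ratios are bounds. PSMB10 was the one clearly above it, with 699.5, 496, 454, 468 and 347 in array order. All 4 treated signals of PSMB10 were lower than the control, with log2 ratios of -0.50, -0.62, -0.58 and -1.01. The 2-fold call on isoflavone 72 h is a narrow one (2.02-fold), and it was lost where the floor was set at the 75th percentile (-0.57) or added as a pseudocount (-0.84).

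Most genes of the 19S cap were lower too, with more exceptions. Of its 17 measured genes 11, 15, 10 and 16 were lower than the control on the treated arrays. These are 64.7%, 88.2%, 58.8% and 94.1%, beside 42.8%, 45.5%, 49.7% and 45.7% of all genes, so that isoflavone 6 h lay nearest its background. The medians were -0.05, -0.44, -0.06 and -0.29. Within the ATPase ring PSMC4 had the lowest mean ratio, with 4077, 3102, 2989.5, 3453 and 2667 in array order. PSMC3 reached -0.70 on isoflavone 72 h. PSMC6 lay on the other side, with 4507, 5236.5, 5086, 5234 and 4525 in array order, none of them lower than the control. Its largest difference was 0.22 on the log2 scale.

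PSMD3, a scaffold subunit of the lid, was the 19S gene farthest below the control. Its signal was 4379, 2489, 2447, 3092 and 2451 in array order. The log2 ratios were -0.82, -0.84, -0.50 and -0.84, close to but under 2-fold on 3 arrays. On BR-DIM 48 h the large base subunits PSMD1 and PSMD2, which hold the ubiquitin receptors in place, were -0.66 and -0.72, and the lid subunit PSMD6 was -0.62. PSMD5, a chaperone that leaves the cap once it is built, had 156, 177, 12.4, 12.8 and 140.1 in array order, so that its 1.5-fold calls on BR-DIM 48 h and isoflavone 6 h are bounds at the floor. Those are the arrays with the low epithelial markers, whose part was not tested. PSMD14, the deubiquitinase that removes the ubiquitin chain, had the highest mean ratio of the PSMD genes, with 8862, 10177, 10241, 10004 and 8429 in array order. The ubiquitin receptor PSMD4 was also close to the control, between -0.01 and 0.18.

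The largest single difference belonged to an alternative activator. PSME3, which encodes PA28γ, a nuclear activator of the core, had 5767, 3906, 3021.5, 4132 and 2217 in array order. Its log2 ratios were -0.56, -0.93, -0.48 and -1.38. The remaining PSME3 probe sets had -1.22, -0.57 and -0.90 on isoflavone 72 h, so that they share the direction and not the size, and all 4 PSME3 probe sets have IDs ending in _s_at or _x_at, which can bind related transcripts. PSME4, the PA200 activator, differed little by its brightest probe set, with 2634, 2961, 2809.6, 2461 and 2282.5 in array order, but its further probe sets gave 0.74 and -1.20 on isoflavone 72 h. PSME1, of the interferon-induced PA28 activator, lay between -0.27 and 0.08. PSMF1 was -0.46, -0.15, -0.47 and -0.97 on the treated arrays, though its second probe set was -0.04 on isoflavone 72 h.

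The PSMG assembly factors lay closer to the control on both later arrays, with medians over 4 genes of 0.17, 0.05, -0.03 and 0.03 on the treated arrays. This does not extend to the cap chaperones PSMD10 and PSMD5, which were counted with the cap. On BR-DIM 48 h and isoflavone 72 h PSMD10 was -0.44 and -0.33, and its second probe set -0.03 and -0.60. PSMD5 was -0.68, as a bound, and -0.16 on these arrays. PSMG2, which pairs with PSMG1 to seat the alpha ring, had 8123, 10567, 11562, 9367 and 8055 in array order. Both BR-DIM signals were the higher ones, at 0.38 and 0.51. Its partner PSMG1 was -0.34, 0.16, -0.30 and 0.07 on the treated arrays. PSMG3, with the lowest mean ratio of the group, had 2492, 2646, 1999, 2269 and 2093 in array order.

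**Figure D3:**
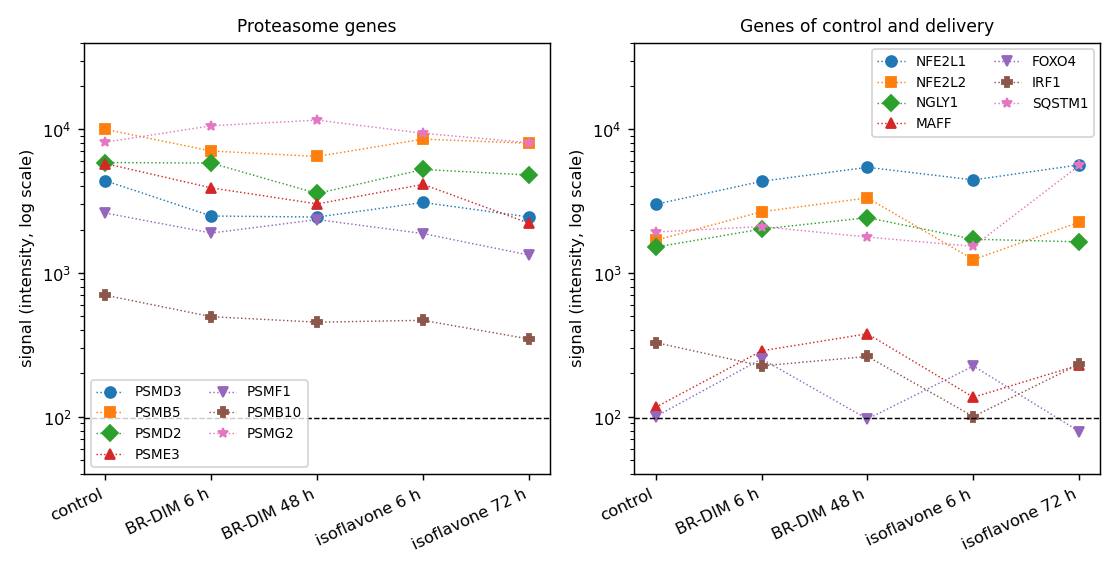
Array signal (intensity, log scale) of 7 proteasome genes (left) and 7 genes of proteasome gene control, ubiquitin delivery and interferon response (right) on the 5 arrays, 1 point per array; dotted lines only join the points of a gene and the dashed line is the floor of 97.1. The treated PSMD3 points lie from 2447 to 3092, below the control at 4379, and NFE2L1 lies above its control level of 3002 on all 4 treated arrays.

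Comparisons that leave the control array out set the later array of each compound against its earlier one. The time of the control is not stated, so time in culture and time with the compound cannot be told apart. BR-DIM for 48 h over 6 h had a median of -0.19 over 40 members, against -0.01 over all genes and 0.03 over the genes with a mean signal of at least 4000, with 32 of 40 lower where 50.8% of all genes were. At 1.5-fold PSMD2 and PSMD5, the latter as a bound, were lower (11.9% of all genes) and 0 members higher (8.68%), and at 2-fold 0 were lower (3.74%) and 0 higher (1.83%). Isoflavone for 72 h over 6 h had a median of -0.21 against 0.04 over all genes and -0.12 over those bright genes, with 33 of 40 lower beside 46.8%, and PSMB3, PSMC3 and PSME3 were 1.5-fold lower (10.3% of all genes) and 0 members 1.5-fold higher (18.8%), with 0 past 2-fold downwards (1.89%) or upwards (7.77%). In both compounds the later array was thus the lower one, but BR-DIM 48 h and isoflavone 6 h are also the arrays low in epithelial markers, and they lie on opposite sides of these 2 comparisons. Among the 4 treated arrays and the control, BR-DIM 48 h held the lowest signal of 19 of the 38 genes above the floor on all arrays, or 50% against 21.7% of all such genes, and isoflavone 72 h that of 15, or 39.5% against 20.8%.

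The compounds share 1 time, 6 h, at 25 µM each. BR-DIM 6 h over isoflavone 6 h had a median of -0.07 over 40 members, against 0.06 over all genes. The genes with a mean signal of at least 4000 had -0.09, so that the members lay below all genes but not below other bright genes. With quantile normalization the members' median turned to 0.01. Of the members 24 of 40 were lower with BR-DIM, beside 43.9% of all genes. All 7 beta subunits were lower with BR-DIM, by -0.12 to -0.35, while the 5 ATPases had a median of 0.00 and the 4 assembly factors one of 0.17. At 1.5-fold PSMD10, a cap chaperone known as gankyrin, was lower (6.55% of all genes) by its brightest probe set, at 5166 with BR-DIM and 8396 with isoflavone, while its second probe set, almost as bright, read 6565 and 7432. PSMD5 was higher, as a bound (17.5% of all genes), and 0 members were 2-fold lower (1.12%) or higher (7.01%). With 1 array per condition none of these differences was tested.

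Among genes that work with the proteasome, none of its further parts and partners was 2-fold changed. Over all genes 0.806%, 3.87%, 3.82% and 2.06% were 2-fold lower on the treated arrays. The shares 2-fold higher were 2.86%, 5.33%, 1.18% and 4.8%, so that 0 of 9 genes is near the background. Of the 9 parts and partners 7, 7, 8 and 5 were lower than the control on the treated arrays, beside 42.8%, 45.5%, 49.7% and 45.7% of all genes. The count on isoflavone 72 h was thus near its background. The medians were -0.13, -0.31, -0.06 and -0.05. The deubiquitinase USP14, which trims chains at the cap, was -0.51, -0.87, -0.51 and -0.45 on the treated arrays, and the ubiquitin receptor ADRM1 was -0.51, -0.81, -0.16 and -0.31 on the treated arrays. PAAF1, a protein that holds ATPases apart from the core during assembly, was higher by 0.40 to 0.44 on all 4 arrays. Of 14 measured genes that deliver substrates, 0 were 2-fold lower, beside 0.806%, 3.87%, 3.82% and 2.06% of all genes. Their medians were -0.11, -0.14, -0.09 and 0.15 on the treated arrays. At any size 8, 9, 10 and 5 were lower, beside 42.8%, 45.5%, 49.7% and 45.7% of all genes. On BR-DIM 48 h they ranged from -0.90, for the segregase VCP, to 0.73. SQSTM1, the autophagy receptor p62, was the one 2-fold higher, with 1927, 2101.5, 1776, 1529.5 and 5591.5 in array order. Its rise was that of isoflavone 72 h alone (1.54), on which 4.8% of all genes were 2-fold higher. Of 6 ubiquitin and E1 genes 3 had a probe set of 1 symbol. All 3 were measured, and 0 were 2-fold changed, which is near the shares of all genes given above for the parts and partners. The ubiquitin gene UBB was higher on all 4 arrays by 0.40 to 0.50. The ubiquitin-activating enzymes differed from it, with UBA1 at 0.02, -0.45, 0.24 and -0.52 and UBA6 at -0.20, -0.24, -0.19 and -0.53 on the treated arrays.

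Factors that control proteasome genes mostly lay above the control, with medians over 12 genes of 0.37, 0.59, 0.10 and 0.10 on the treated arrays. On these arrays 2, 3, 3 and 4 of the 12 were lower than the control, beside 42.8%, 45.5%, 49.7% and 45.7% of all genes. NFE2L1 had 3002, 4339, 5431.5, 4438 and 5648 in array order, with log2 ratios of 0.53, 0.86, 0.56 and 0.91. NFE2L2, the related antioxidant factor NRF2, had 1687, 2665, 3326, 1239 and 2255 in array order, so that isoflavone 6 h was the one array below the control. NGLY1, the glycanase that activates NRF1, was 0.42, 0.68, 0.18 and 0.12 on the treated arrays. Of the 12 genes of this list 2 passed 2-fold upwards on BR-DIM 6 h (MAFF and FOXO4), beside 2.86% of all genes. On BR-DIM 48 h 2 did (MAFF and KLF4), beside 5.33%. On isoflavone 6 h 1 did (FOXO4), beside 1.18%, and on isoflavone 72 h 0 did, beside 4.8%. MAFF, a small MAF protein that pairs with NRF1 and NRF2, had 116, 287, 377, 136.5 and 229 in array order. Its 2-fold calls thus rest on a control signal near the floor. FOXO4, for which a role in PSMD11 expression is known, lay at 100.1, 252, 96.2, 225 and 78.8 in the same order, near the floor except on both 6 h arrays. KLF4 was 961 on BR-DIM 48 h against 410.1 in the control (1.23).

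The interferon list holds regulators of the immunoproteasome and targets of interferon, and 12 of its 18 genes with a probe set were measured in each comparison with the control, not the same 12 in each. IRF1, a factor that drives PSMB8, PSMB9 and PSMB10, had 328, 225.5, 262, 100.1 and 232 in array order, 2-fold lower on isoflavone 6 h (-1.71). Of these genes 0 were 2-fold changed on BR-DIM 6 h, where 0.806% of all genes were lower and 2.86% higher. IFIT1 was 2-fold lower on BR-DIM 48 h (3.87% of all genes), IRF1, IFIT1 and ISG15 on isoflavone 6 h (3.82%), and IFIT1 on isoflavone 72 h (2.06%). IFIT1 had 253, 232, 44.8, 95 and 119.6 in array order, so that its calls on BR-DIM 48 h and isoflavone 6 h are bounds. The IRF1 signal on isoflavone 6 h lay near the floor. GBP2 was 2-fold higher on isoflavone 72 h (337 against 80.2 in the control, a bound), beside 4.8% of all genes. ISG15 was 774 in the control and 252 on isoflavone 6 h. Of 9 genes that process antigen from proteasome products, ERAP1, a peptide-trimming enzyme, was the one 2-fold changed. It went from 124 in the control, near the floor, to 276 on isoflavone 72 h, where 4.8% of all genes were 2-fold higher. TAP1 and TAP2, the peptide transporter genes beside PSMB8 and PSMB9, lay between 315 and 733 and between 448 and 695.

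Promoters are shown for PSMD3 and PSMG2, which lay on opposite sides of the control with BR-DIM and hold the same kind of motif, and for PSMB10, the immunoproteasome gene above the floor. They are the 250 bases before the RefSeq start of each gene (GRCh38.p14), read 5′ to 3′ along the gene: PSMD3 at chr17:39980557-39980806 on the plus strand, PSMG2 at chr18:12658488-12658737 on the plus strand and PSMB10 at chr16:67936851-67937100 on the minus strand. Matches on either strand were sought to TGACNNNGC (the antioxidant response element that NRF1 and NRF2 bind), CCAAT (the box of NF-Y), an interferon-stimulated element (a pair of GAAA repeats with 2 bases of any kind between them), TATAAA (the TATA box) and CCGGAAG (the core bound by ETS factors), and capitals mark them.
PSMD3: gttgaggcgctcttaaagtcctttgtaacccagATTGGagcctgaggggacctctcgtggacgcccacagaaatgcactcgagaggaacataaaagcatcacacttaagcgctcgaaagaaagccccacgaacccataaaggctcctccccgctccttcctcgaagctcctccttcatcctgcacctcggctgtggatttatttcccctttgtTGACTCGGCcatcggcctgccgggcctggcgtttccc
PSMG2: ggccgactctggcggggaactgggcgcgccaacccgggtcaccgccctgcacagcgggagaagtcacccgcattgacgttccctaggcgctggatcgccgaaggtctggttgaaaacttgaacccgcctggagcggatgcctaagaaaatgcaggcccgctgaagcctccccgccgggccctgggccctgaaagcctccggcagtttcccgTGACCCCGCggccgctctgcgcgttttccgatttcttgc
PSMB10: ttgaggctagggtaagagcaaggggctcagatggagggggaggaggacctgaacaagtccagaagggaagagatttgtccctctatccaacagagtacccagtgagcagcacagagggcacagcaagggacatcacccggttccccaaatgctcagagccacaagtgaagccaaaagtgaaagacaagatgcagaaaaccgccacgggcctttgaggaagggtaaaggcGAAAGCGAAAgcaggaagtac

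The response element begins 37 bases before the start in PSMD3 and 39 bases before it in PSMG2, where PSMD3 was -0.82 and -0.84 with BR-DIM and PSMG2 0.38 and 0.51. The interferon-stimulated element of PSMB10 begins 21 bases before its start. Promoters were matched for 36 of the 42 genes. TGACNNNGC was in 10 of them (27.8%, against 11.0% of 27305 promoters of this length), CCAAT in 15 (41.7% against 33.0%) and the interferon-stimulated element in 4 (11.1% against 3.07%). The ETS core was in 9 (25% against 8.82%) and TATAAA in 4 (11.1% against 11.1%), and 0 matches of different motifs overlapped. The TATAAA matches were sought anywhere in the window, and those in members began at base -249 to base -127 from the start. Members with TGACNNNGC had median log2 ratios of 0.05, -0.19, -0.10 and -0.12 on the treated arrays, and members without it -0.25, -0.44, -0.13 and -0.33. This sets 10 measured members, or 9 on isoflavone 6 h, against 24. PSMG1, PSMG2, PSME1 and PSME4 held this motif, but of the 20S alpha and beta subunits with a promoter PSMB3 alone did. PSMB9 and PSMD5, with ratios that are bounds, held it too. The part of the subunit group in this split was not tested. For CCAAT the medians were -0.27, -0.51, -0.10 and -0.34 with it and -0.08, -0.29, -0.12 and -0.21 without it, so that the order turned at 6 h of isoflavone. For the ETS core they were 0.10, -0.10, 0.07 and -0.15 with it, over 8 members, and -0.25, -0.45, -0.16 and -0.32 without it. The interferon-stimulated element, in 4 members, gave -0.18, -0.40, -0.02 and -0.14 against -0.10, -0.44, -0.14 and -0.31. TATAAA, in 3 measured members, gave -0.02, -0.23, 0.05 and -0.34 against -0.13, -0.45, -0.13 and -0.29. For the latter pair neither side was the lower one throughout. These splits were read off after the ratios were known. These are matches of letters and not sites of binding.

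A further probe set of the same gene gives a second reading on the same array. For 17 members there were 25 further probe sets above the floor on all 5 arrays. On BR-DIM 48 h 22 of the 25 had the direction of the brightest one, and 18 were lower than it, with a median of -0.57 against -0.17 for the brightest. On isoflavone 72 h 18 of 25 had its direction, with medians of -0.24 and -0.21, and at 6 h the counts were 19 of 25 for BR-DIM and 15 of 25 for isoflavone. On BR-DIM 48 h those of PSMA2 (-1.60), PSMD11 (-1.31) and PSMB7 (-1.22) were 2-fold lower where the brightest were -0.45, -0.40 and -0.17. These further probe sets are dimmer, and the cause of the difference was not tested.

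**Figure D4:**
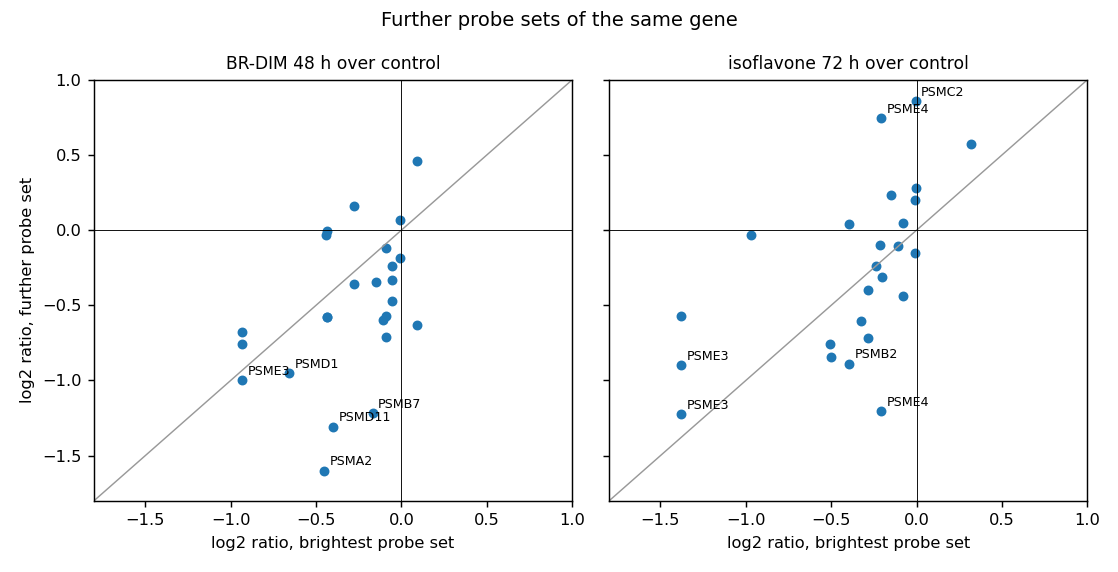
Log2 ratio to the control array of 25 further probe sets (vertical axis) against that of the brightest probe set of the same gene (horizontal axis), for 17 proteasome genes on BR-DIM 48 h (left) and isoflavone 72 h (right); the diagonal marks equality. On BR-DIM 48 h 18 of the 25 points lie below the diagonal, with PSMA2 lowest at -1.60.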

How the data were processed

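RNA of 5 C4-2B samples, 1 per condition, was measured on Affymetrix Human Genome U133 Plus 2.0 arrays. The deposited intensity values are MAS5 signals per the labels, 1 linear value for each probe set, and the authors had scaled every array: means trimmed by 2% at each end lie between 498.1 and 498.4. Version, scaling target and detection calls are not given in the sources used here. Scaling holds the total constant, so ratios are relative to the other genes of an array.

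The platform gene table gives 1 symbol for 41091 of the 54613 probe sets, several for 1801 and no entry for 11721, and only the first kind was used. Genes matching the PSMA to PSMG names gave 81 probe sets for 42 genes. Signals were raised to the floor of 97.1, log2 ratios were taken between arrays, and genes at 2-fold or beyond were counted. With 1 array per condition there is no spread between replicates, and the number of arrays limits the precision. The comparisons were those of each treated array with the control, the later with the earlier time of each compound, and the compounds at 6 h.

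The members, lists, rules and alternatives were chosen with earlier results of these data known. Signals on all 5 arrays are given for members 2-fold changed on a treated array, for the immunoproteasome genes and for the members of each group with the highest and the lowest mean ratio; of the other lists, genes 2-fold changed on a treated array and NFE2L1, NFE2L2 and IRF1 are named. Further names (members at 1.5-fold or with a stated role, ADRM1, NGLY1, PAAF1, TAP1, TAP2, UBA1, UBA6, UBB, USP14 and VCP) were chosen after their values were seen. Ratios were recomputed after quantile normalization or median-ratio scaling, with the floor dropped, raised to the 75th percentile (471.7) or used as a pseudocount, with probe sets averaged per gene or without those of _s_at and _x_at type, and at thresholds of 1.5-fold and 3-fold. The procedure was tested on simulated data. Python 3.11.15, numpy 2.4.6, pandas 2.3.3, scipy 1.17.1 and matplotlib 3.10.9 were used. Promoter sequences are from RefSeq (GRCh38.p14). The 5 motifs and the window of 250 bases were chosen after the ratios were known. The window was shortened, to leave out transcribed bases, after matches in a longer one had been counted. The counts of members lower than the control at any size were likewise added with the data in view.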

Additional observations from a re-analysis of the deposited data

How the results depend on the processing

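Of 175 counts and medians of the proteasome genes recomputed under the alternatives, 148 stayed within 1.5 times the count or within 0.1 of the median, 26 moved and 1 reversed. On the 4 comparisons with the control, each of the 28 recomputed medians stayed within 0.1 and kept its sign. The reversal was the median of BR-DIM 6 h over isoflavone 6 h with quantile normalization (0.011).

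The 2-fold counts moved with the floor. Without a floor, BR-DIM 48 h had 1 member higher and 1 lower than the control, isoflavone 6 h 1 lower, isoflavone 72 h 1 higher, BR-DIM 48 h over 6 h 1 lower, isoflavone 72 h over 6 h 2 higher and BR-DIM 6 h over isoflavone 6 h 2 higher. With the floor as a pseudocount, 1 gene each was lower on BR-DIM 48 h, on isoflavone 6 h, on isoflavone 72 h and for BR-DIM 48 h over 6 h, with isoflavone 72 h over 6 h 2 higher and BR-DIM 6 h over isoflavone 6 h 1 higher. With a floor at the 75th percentile isoflavone 72 h had 1 lower. Without _s_at and _x_at probe sets, which leaves 30 or 31 measured members per comparison with the control and none for PSME3, BR-DIM 48 h had 2 lower, isoflavone 72 h 1 lower and BR-DIM 48 h over 6 h 1 higher. The 1.5-fold rule gave 1, 11, 1 and 8 lower on the treated arrays in the order of the report, 2 and 3 lower for the later times over the earlier, and 1 higher and 1 lower between the compounds at 6 h, and the 3-fold rule gave 0 lower on isoflavone 72 h. Of the single genes, the ratios of PSME3, PSMD3 and NFE2L1 to the control kept their direction and side of 2-fold wherever a probe set was left, and PSMB10 lost its call on isoflavone 72 h as the report gives. These runs on single genes were added after the data were seen. No array could be left out, since each is its own condition, and no paired analysis was possible because the groups share no replicates. Signal over background limits PSMA8, PSMB8, PSMB9 and PSMD5.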
